A study of Homo sapiens with 11 samples.

Results

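The transcriptome left by BCL11A knockdown was set directly against the one left by MBNL1 knockdown in MDA-MB-231 cells, a mesenchymal, triple-negative breast cancer line derived from a pleural effusion. BCL11A is a zinc finger protein that represses transcription and is best known for silencing the gamma-globin genes. MBNL1 (muscleblind-like 1) is an RNA-binding protein that controls alternative exons, with further roles in RNA stability and localisation. Cells of the siBCL11A group (3 libraries) were transfected at 100 nM with siRNAs pooled against BCL11A, and those of the siMBNL1 group (3 libraries) at 100 nM with siRNAs pooled against MBNL1. Both groups therefore carried a targeting pool at the same dose, and RNA was taken at 48 h. Non-targeting siRNA (siNS, 100 nM, 2 libraries) and the combination of both pools (siB/siM, 50 nM each, 3 libraries) are quoted beside the results and do not enter the contrast. The 11 libraries of the series hold total RNA depleted of ribosomal RNA. Knockdown in 1 cell line with 1 siRNA pool per target limits the groups as a model, since the pools' effects on other transcripts were not measured separately.

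Genes belonged to the contrast when the deposited table gave RPKM (a read count divided by gene length and library size) in both knockdown blocks, which held for 3376 of 8085 listed genes. A gene has values in a block only where the authors' own test against siNS passed, so every gene compared here had changed after both knockdowns. A further 1984 genes have values for siBCL11A and not for siMBNL1, and 1314 the reverse. Genes that changed after only 1 of the knockdowns therefore have no value here. Of the 3376 genes, 3236 had a mean of at least 1 RPKM in a knockdown group and were tested. Of these, 65 passed through 1 group only, and 5 of them were called higher after siBCL11A and 28 higher after siMBNL1, among them LOC100288077. Differences are group means of log2(RPKM + 1), siBCL11A minus siMBNL1, with the standard error of limma, and understate the change of low genes. A gene was called at a Benjamini-Hochberg adjusted p under 0.05. The effective depth of the 6 libraries was estimated at 25.8 to 34.7 M (mega-reads). The labels do not say whether replicates were separate cultures, and it is possible that they were not, in which case a p-value reflects library-to-library spread alone. The tumour line's markers VIM, KRT18 and KRT7 summed to 1609 to 1694 RPKM after siBCL11A and 1706 to 1750 RPKM after siMBNL1. None of the 3 was called in the main fit. VIM had 1066, 1064 and 1098 RPKM against 1209, 1181 and 1168 RPKM, without overlap, and KRT18 was separated the other way. VIM was called higher after siMBNL1 with quantile normalization, in the fit with all groups and with limma's trend option on.

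After BCL11A knockdown the secreted collagenase MMP1, 29 of 71 mitotic genes, 13 of 23 hypoxia-linked genes and 11 of 23 matrix proteases and inhibitors lay below their level after MBNL1 knockdown. MBNL1 itself, 5 of 16 focal adhesion genes and the NOTCH2 receptor lay above it. In all, 392 of 3236 genes (12.1%) were called higher after siBCL11A and 556 (17.2%) higher after siMBNL1, together 29.3%. Most differences were small: the median absolute difference was 0.14 on the log2 scale, and 95% of genes differed by less than 0.58. A log2 difference of at least 1 was reached by 11 called genes (0.34%) higher after siBCL11A and by 25 (0.773%) higher after siMBNL1. For 1179 genes (36.4%) the 95% confidence interval of the difference lay within 1.2-fold in either direction. The 6 library values were fully separated by group for 1461 genes (45.1%), 679 with siBCL11A higher (21.0%) and 782 with siMBNL1 higher (24.2%). The share called hardly varied with the level, at 29.1%, 31.4% and 27.4% in 3 equal groups of low, middle and high mean RPKM. The split of the calls depended on scaling: after quantile normalization 566 genes were higher after siBCL11A and 505 higher after siMBNL1. Without siBCL11A library 2 the 392 calls fell to 234, and without siBCL11A library 3 to 251.

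**Figure D1:**
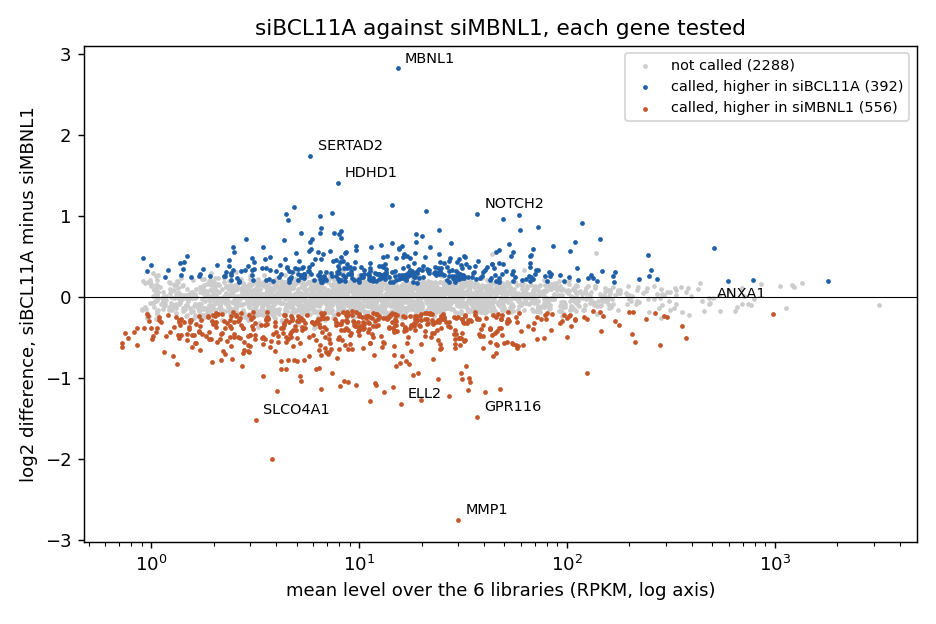
Each of the 3236 genes tested is a point, with its mean RPKM over the 6 libraries on a log axis and its log2 difference (siBCL11A minus siMBNL1) on the vertical axis. Blue points (392) were called higher after siBCL11A and orange points (556) higher after siMBNL1, and MBNL1 and MMP1 mark the ends of the range at 2.82 and -2.75.

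MBNL1, the target of the second pool, had the largest difference of all genes tested. Its level was 27.7, 27.5 and 27.6 RPKM in the siBCL11A libraries and 3.17, 3.52 and 2.55 RPKM in the siMBNL1 libraries. The groups were far apart, and the siNS libraries, at 10.2 and 9.77 RPKM, lay between them: MBNL1 was low after its own knockdown and above the control after BCL11A knockdown. The difference was 2.82 ± 0.09 (SE; limma adjusted p = 2.945e-08), which is 8.96-fold in mean RPKM. The combination had 3.53, 3.65 and 3.56 RPKM, at the level of the siMBNL1 libraries. BCL11A, MBNL2 and MBNL3 have no value in the contrast, so the knockdown of BCL11A is not shown by these values.

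MMP1, the interstitial collagenase that cleaves fibrillar collagens, had the largest difference in the other direction. It stood at 7.75, 6.63 and 6.79 RPKM after siBCL11A and at 53.1, 55.4 and 50.5 RPKM after siMBNL1. The groups did not overlap, and both lay below siNS at 84.5 and 80.1 RPKM, siBCL11A by far the lower. The difference was -2.75 ± 0.07 (limma adjusted p = 1.387e-08), or 7.52-fold lower after siBCL11A. The siB/siM libraries, at 12.9, 11.2 and 10.6 RPKM, lay close to siBCL11A although each pool was given at 50 nM. LOC100288077, which was lower after siBCL11A in every library (1.11, 0.865 and 0.791 RPKM against 6.38, 6.97 and 6.62 RPKM), is annotated by RefSeq as the transcribed pseudogene WTAPP1, whose span contains MMP1, so how reads were shared between these genes is uncertain.

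The other leading genes higher after siBCL11A differ in function. SERTAD2, a transcriptional coregulator linked to E2F, had 9.79, 9.87 and 8.87 RPKM after siBCL11A against 2.16, 2.43 and 1.85 RPKM after siMBNL1. The groups were separate, with a difference of 1.74 ± 0.08 (limma adjusted p = 6.313e-07), and siNS (8.59 and 6.58 RPKM) lay just under the siBCL11A libraries. HDHD1, a pseudouridine-5'-phosphatase, had 12.2, 12.1 and 11.5 RPKM against 3.75, 4.28 and 3.58 RPKM, again without overlap and 1.41 ± 0.07 apart. NOTCH2, a receptor for Delta and Jagged ligands, had 48.8, 50.9 and 50.4 RPKM against 23.9, 26.4 and 22.1 RPKM. Its siNS libraries (41.7 and 42.6 RPKM) lay between the knockdowns, nearer to siBCL11A, and the difference was 1.02 ± 0.07. The remaining genes of the 12 largest differences in this direction were POLR3D, a subunit of RNA polymerase III, ZNF768, the scaffold gene SLC9A3R2, the microtubule regulators SLAIN2 and KATNAL1, PLAC8, TSC22D2 and TRIM16L, at 0.96 to 1.14. TRIM16L is a near copy of part of TRIM16, so its reads may be divided between both.

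Among the genes higher after siMBNL1, SLCO4A1, an organic anion transporter, had 1.13, 1.16 and 1.25 RPKM after siBCL11A and 5.17, 5.04 and 5.43 RPKM after siMBNL1. The siNS libraries (3.13 and 3.59 RPKM) lay between the groups, so its level was below the control after 1 knockdown and above it after the other, and the difference was -1.51 ± 0.06 (limma adjusted p = 2.034e-07). GPR116, an adhesion G protein-coupled receptor, had 20.1, 18.6 and 18.6 RPKM against 57.5, 56.8 and 50.4 RPKM, both below siNS at 85.3 and 91.7 RPKM. The groups did not overlap and differed by -1.48 ± 0.07. ELL2, a transcription elongation factor, had 8.46, 8.94 and 8.56 RPKM against 22.4, 24.5 and 22.2 RPKM. PNP, an enzyme of purine salvage, had 10.99, 10.5 and 12.4 RPKM against 27.6, 28.8 and 29.2 RPKM. In ELL2 and PNP alike siNS lay between the knockdown groups, at 18.9 and 19.2 RPKM for ELL2 and 19.1 and 20.03 RPKM for PNP. The lysosomal sialic acid transporter SLC17A5, the apoptosis inhibitor API5, the protein kinase A subunit PRKAR2A, the secreted hormone STC1, EPB41L4B and the G protein subunit GNG12 completed the 12, at -1.15 to -1.28. The siB/siM mean lay between the means of the single knockdowns for all 12 of these genes, and for 8 of the 9 with a value among the genes higher after siBCL11A. Over both directions, none of the 23 leading genes other than MBNL1 lost its call or changed sign under any alternative run.

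**Figure D2:**
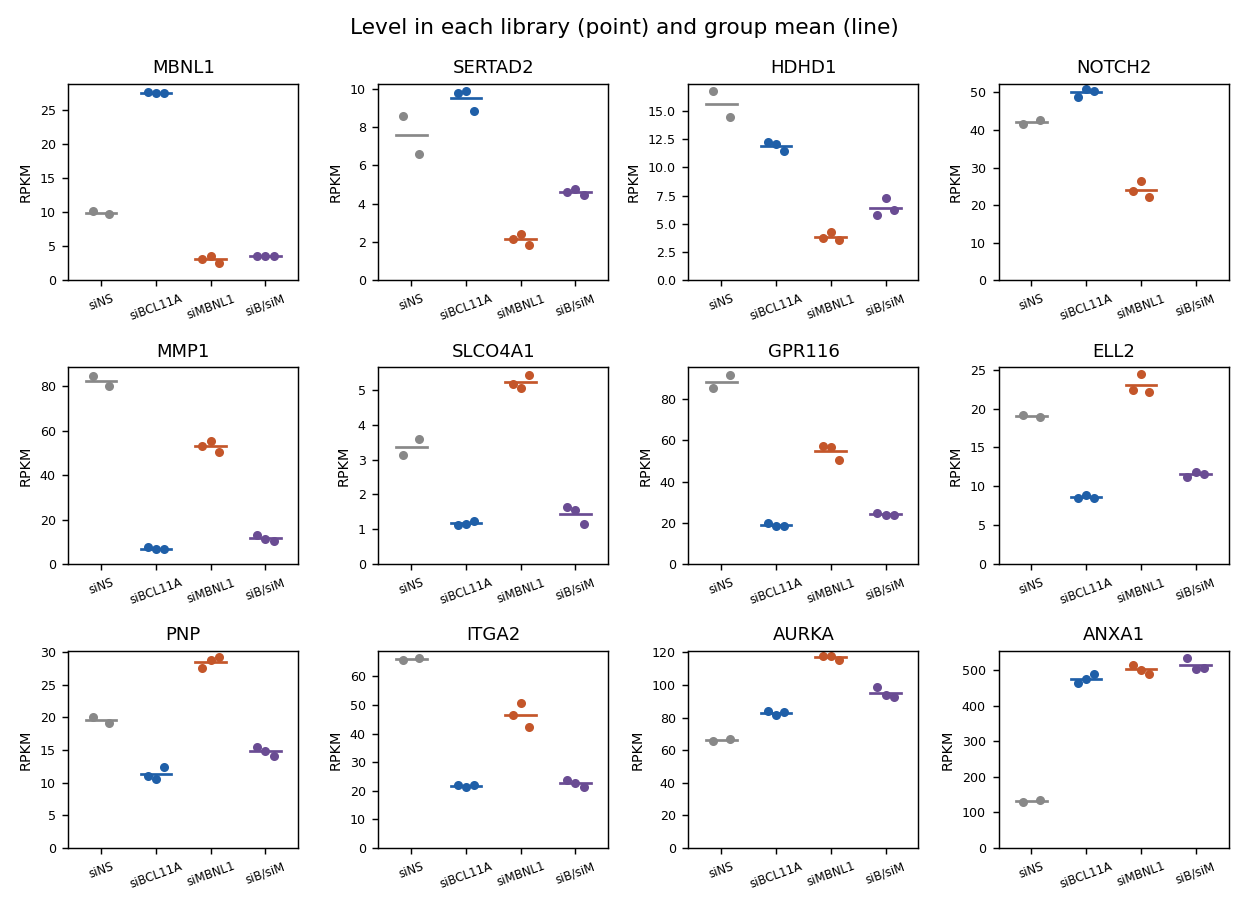
The level of 12 genes is plotted in RPKM for each library (points) with the group mean (line), for siNS, siBCL11A, siMBNL1 and siB/siM. The siBCL11A and siMBNL1 points do not overlap in any panel, but ANXA1, at 462 to 489 and 490 to 515 RPKM, was not called, and NOTCH2 has no siB/siM value.

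Set against siNS, most genes lay on the same side after both knockdowns, and the direct contrast shows which knockdown lay farther out. Of 1625 genes lower than siNS after both, 358 were lower after siBCL11A than after siMBNL1 and 150 lower after siMBNL1. Of 1533 genes higher than siNS after both, 205 were higher after siBCL11A and 159 higher after siMBNL1. With quantile normalization these counts were 318 and 213 among the lower genes and 316 and 148 among the higher genes. Only 78 genes lay on opposite sides of siNS, 39 in each direction, of which 37 and 39 were called, and since listing required a change from siNS in each block these calls follow from the selection. The siNS libraries serve both sides of this sorting, which is a description.

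Several genes lay far from siNS and yet close to each other. ANXA1, a phospholipid-binding protein, had 462, 475 and 489 RPKM after siBCL11A and 515, 500 and 490 RPKM after siMBNL1, against 129 and 134 RPKM in siNS. Its groups were separated by a margin smaller than their own spread, the difference was -0.08 ± 0.06 (limma adjusted p = 0.361), and its 95% interval ran from -0.21 to 0.06. WEE1, the kinase that holds CDK1 inactive, had 8.18, 8.11 and 7.37 RPKM against 8.56, 7.94 and 7.85 RPKM, with 2.58 and 2.25 RPKM in siNS. The kinetochore gene CENPQ, CMTM6, the keratin KRT81 and the tubulin TUBA1A were the other genes within 1.2-fold that lay farthest from siNS. TUBA1A and KRT81 have near-identical relatives, and their values depend on how shared reads were assigned.

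Where genes that remodel the extracellular matrix were called, more were lower after siBCL11A than higher. Among proteases and their inhibitors, 11 of 23 tested members were called higher after siMBNL1 and 2 higher after siBCL11A, with a median difference of -0.23 against -0.01 over all genes tested. The membrane collagenase MMP14 had 81.5, 86.5 and 87.1 RPKM after siBCL11A and 171, 155 and 165 RPKM after siMBNL1. The groups did not overlap (-0.94 ± 0.06, limma adjusted p = 6.302e-06), and siNS was higher than both, at 194 and 195 RPKM. SERPINA1, a protease inhibitor, and ADAM8, a cell surface protease, differed by -0.97 ± 0.09 and -0.76 ± 0.11. Urokinase (PLAU, -0.46 ± 0.06) and its receptor (PLAUR, -0.63 ± 0.06), named after their values were seen, moved the same way, whereas the sheddase ADAM17 was higher after siBCL11A (0.61). In the collagen, laminin and glycoprotein list 6 of 12 members were higher after siMBNL1 and 2 higher after siBCL11A (median -0.36), the latter 1 without siBCL11A library 2, siMBNL1 library 1 or siMBNL1 library 3. TNC, the gene of tenascin C, had 5.86, 5.51 and 6.12 RPKM against 14.7, 13.9 and 12.1 RPKM and was separated by -1.09 ± 0.08. COL4A5 (-0.89) and COL17A1 (-0.71) followed. Of the secreted cystatins and related genes 4 of 9 were higher after siMBNL1 and 0 higher after siBCL11A, also at an unadjusted p under 0.05, led by CST1 (-1.11 ± 0.13). CST1, CST2 and CST4 are close copies, so their values are uncertain, and CST2 and CST3 lost their call without most single libraries, so that 2 of the 4 calls were left without siBCL11A library 1, siMBNL1 library 1 or siMBNL1 library 3.

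Adhesion genes divided. The collagen receptor subunit ITGA2 had 22.1, 21.3 and 22.2 RPKM after siBCL11A and 46.6, 50.6 and 42.5 RPKM after siMBNL1, below siNS (65.6 and 66.5 RPKM) in both. ITGA2 was the only 1 of 16 tested integrin and focal adhesion genes called higher after siMBNL1, and 5 were higher after siBCL11A, with a median of 0.16. The myosin light chain MYL9 had 83.0, 95.3 and 105 RPKM against 51.9, 51.4 and 50.2 RPKM, with siNS at 102 and 101 RPKM. Its siBCL11A libraries spread around the control and its siMBNL1 libraries lay below it (0.86 ± 0.08, limma adjusted p = 5.202e-05). The cofilin kinase LIMK1 (0.67), the scaffold NEDD9 (0.57) and ZYX (0.49), which encodes zyxin, also passed. In the YAP and TEAD list, which holds Hippo pathway members and targets, 5 of 11 members were higher after siBCL11A and 2 higher after siMBNL1 (median 0.14). Caveolin 1 (CAV1, 0.71) and the target ANKRD1 (0.52) were among the 5, and the kinase LATS2 (-0.77) and the coactivator WWTR1 (-0.39) were the 2. Of 17 TGF-beta and BMP genes 5 were higher after siBCL11A and 4 higher after siMBNL1 (52.9% called, against 29.3% of all genes), with the inhibitor of differentiation ID3 at 0.75 ± 0.10 and the target PMEPA1 at -0.43 ± 0.06. The 5 became 3 without siBCL11A library 2 or 3, and the 4 became 2 without siBCL11A library 1 or 2 or siMBNL1 library 1 or 2. In the epithelial list 4 of 16 members were higher after siMBNL1, among them the transcription factor SPDEF (-0.79) and the keratin KRT19 (-0.56). KRT80 (0.43) was higher after siBCL11A. The share called, 31.25%, was near the 29.3% of all genes, and the median was -0.05. KRT15, 1 of the 4, passed the filter only through siMBNL1 (1.73 RPKM, against 0.964 RPKM after siBCL11A). Its call is not counted as support.

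Mitotic genes, which drive chromosome segregation, were lower after siBCL11A than after siMBNL1 where they differed. By limma 29 of 71 tested G2/M genes were called higher after siMBNL1 and 0 higher after siBCL11A, and at an unadjusted p under 0.05 the counts were 31 and 1. Median centring and quantile normalization called 1 of them higher after siBCL11A. Their median difference was -0.17. The mitotic kinase AURKA had 83.8, 81.6 and 83.7 RPKM after siBCL11A and 118, 118 and 115 RPKM after siMBNL1. Its groups did not overlap and siNS was lower than both, at 65.7 and 67.0 RPKM (-0.49 ± 0.06, limma adjusted p = 0.0001761). The kinetochore gene NDC80 (-0.52), the cell cycle kinase CDK1 (-0.47) and the centromere gene CENPW (-0.47) had differences of like size. The 29 calls fell to 19 without siBCL11A library 2 and ranged up to 32 without siMBNL1 library 3. Of 16 kinesins, motor proteins of which several move chromosomes, 8 were higher after siMBNL1, led by KIF20A and KIF14, and 1 was higher after siBCL11A. KIF20A, KIF14, KIF22 and KIF15, all higher after siMBNL1, also belong to the G2/M list, so the counts of these lists overlap. In bulk RNA, fewer cells in a phase and less RNA per cell cannot be told apart.

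DNA replication genes went both ways. Of 61 tested G1/S genes, 15 were higher after siMBNL1 and 8 higher after siBCL11A, with a median of -0.09. The share called was 37.7%, against 29.3% of all genes. The replication kinase CDC7 (-0.49), cyclin E2 (CCNE2, -0.46), the ligase LIG1 (-0.38) and cyclin D1 (CCND1, -0.35) were higher after siMBNL1. Some members of the replicative helicase lay on the other side, picked after their values were known: MCM5 (0.28), CDC45 (0.25), MCM6 (0.23) and MCM7 (0.19). Its other members are not described. The named ones passed narrowly, with limma adjusted p = 0.0194 for MCM5 and 0.04647 for MCM6. When adjusted over the authors' 23227 genes, 0 of the 61 were called higher after siBCL11A and 4 higher after siMBNL1. With 1 library left out, 5 to 14 were called higher after siMBNL1 and 2 to 7 higher after siBCL11A, the lowest being 5 without siMBNL1 library 1 and 2 without siBCL11A library 2. Leaving out any siBCL11A library or siMBNL1 library 1 lowered both counts by over 1.5 times, and siMBNL1 library 3 the 8 alone, to 5. Among CDKs and their inhibitors, CDKN1A, the p53 target p21, had 21.1, 22.5 and 22.8 RPKM after siBCL11A and 46.6, 40.6 and 48.5 RPKM after siMBNL1. The siNS libraries, at 30.0 and 33.2 RPKM, lay between these separate groups (-0.996 ± 0.08, limma adjusted p = 1.143e-05). CDKN2C, an inhibitor of CDK4 and CDK6, differed in the same direction (-0.75 ± 0.07). Of 29 histone genes, 3 were higher after siMBNL1 and 0 higher after siBCL11A by limma, and 8 and 0 at an unadjusted p under 0.05. Their share called by limma, 10.3%, was below the 29.3% of all genes. The 3 calls became 1 without siBCL11A library 1, siBCL11A library 2 or siMBNL1 library 1 and 7 without siMBNL1 library 2, and histone copies may share reads.

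The hypoxia and glycolysis list held 13 of 23 tested members higher after siMBNL1 and 1 higher after siBCL11A, with a median of -0.24. STC1 had 7.41, 7.24 and 8.46 RPKM after siBCL11A and 19.5, 19.7 and 16.6 RPKM after siMBNL1, both below siNS at 27.2 and 27.5 RPKM. ENO2, a glycolytic enolase, had 10.8, 11.5 and 13.7 RPKM against 25.4, 24.1 and 23.6 RPKM, again without overlap and below siNS (30.3 and 31.0 RPKM). The glucose transporter SLC2A3 (-0.94), the mTORC1 inhibitor DDIT4 (-0.57) and, named after its value was seen, the growth factor VEGFA (-0.45) lay in the same direction, while the lysyl oxidase LOX was 0.25 higher after siBCL11A, a call lost without siBCL11A library 2 or 3 or siMBNL1 library 1 or 3. Leaving out 1 library gave 9 to 12 members higher after siMBNL1. Solute carriers were called at 35.7%, near the share of all genes, with 13 of 56 higher after siMBNL1 and 7 higher after siBCL11A, and 11 and 12 after quantile normalization. SLC45A4, 1 of the 13, passed the filter only through siMBNL1 (1.27 RPKM, against 0.732 RPKM after siBCL11A).

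Inflammatory genes lay on both sides. Interleukin 6 (IL6) had 8.26, 11 and 10.2 RPKM after siBCL11A and 5.81, 5.996 and 4.07 RPKM after siMBNL1, both below siNS at 22.7 and 24.9 RPKM. The groups were separate at 0.79 ± 0.13 (limma adjusted p = 0.001447). IL24, a cytokine of the IL10 family, went the other way with 2.58, 2.53 and 2.83 RPKM against 5.86, 6.44 and 4.99 RPKM (-0.88 ± 0.08). In the NF-kB list 4 of 14 members were higher after siBCL11A and 2 higher after siMBNL1 (42.9% called, against 29.3% of all genes). The 4 became 2 without siBCL11A library 2, and the 2 became 1 without siMBNL1 library 1 or 3. In the interferon list 4 of 33 were higher after siBCL11A and 3 higher after siMBNL1 (21.2% called), with IFITM1 at -0.56 and IFI6 at 0.47. Median centring made the 4 calls 7, and they became 1 without siBCL11A library 2 or 3 or siMBNL1 library 3 and 2 without siMBNL1 library 1, which also left 1 of the 3. The libraries of IFI6 overlap, and its call was lost in the same 4 cases. The stress response regulator ATF4 had 101, 108 and 105 RPKM after siBCL11A, 68.4, 65.3 and 68.3 RPKM after siMBNL1 and 54.1 and 56.3 RPKM in siNS, a difference of 0.63 ± 0.06. Of the 11 immune cell markers examined, LAPTM5 (-1.09), CSF1R (-0.51) and CD68 (-0.27) were tested, and all 3 were called higher after siMBNL1. CSF1R passed the filter only through siMBNL1 (1.36 RPKM, against 0.650 RPKM after siBCL11A), so its call is not counted as support. Their summed level was 35.0 to 39.0 RPKM after siBCL11A, 49.7 to 55.2 RPKM after siMBNL1 and 98.1 to 100.5 RPKM in siNS, and its part in the other differences was not tested. CD68 lost its call without most single libraries. PTPRC and CD3E have no value in the contrast, and of 12 endothelial, fibroblast and pericyte markers only COL1A2 was tested, without a call.

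Metabolic and housekeeping lists ranged from 10% of members called (mitochondrial ribosome) to 66.7% (glycosphingolipid metabolism), against 29.3% of all genes. FADS2, a fatty acid desaturase, had 14.4, 15.2 and 17 RPKM after siBCL11A and 33.9, 32.3 and 30.7 RPKM after siMBNL1, with siNS at 38.9 and 40.1 RPKM. It was the 1 of 9 cholesterol and sterol genes that passed (-1.01 ± 0.07, limma adjusted p = 8.289e-06). In glycosphingolipid metabolism 4 of 9 genes were higher after siMBNL1 and 2 higher after siBCL11A (3 and 3 after quantile normalization). The 4 became 2 without siBCL11A library 2 or siMBNL1 library 1, and the 2 became 1 without any library but siMBNL1 library 1. UGCG, which makes glucosylceramide, had 133, 122 and 118 RPKM after siBCL11A and 81.9, 86.6 and 81.8 RPKM after siMBNL1, whereas the ganglioside synthase ST3GAL5 differed by -0.68 ± 0.08. Of 7 genes in the cytosolic ribosomal protein list 2 were higher after siBCL11A. RPL17 had 595, 628 and 624 RPKM against 402, 405 and 408 RPKM, and it has processed copies that may take its reads. The other was RPS27L (0.41), a ribosomal protein-like gene that is also counted in the p53 list. Of 10 mitochondrial ribosome genes MRPL19 (-0.71) was called, and of 9 respiratory chain genes NDUFB3 (-0.61) and NDUFAF3 (0.36). In the chromatin regulator list, 3 of 19 members were higher after siMBNL1, including the methyltransferase EZH2 (-0.36), and 2 higher after siBCL11A (26.3% called). The list also holds nuclear lamins, so LMNB1 (-0.43) is 1 of the 3 and LMNB2 (0.32) is 1 of the 2. The 2 became 4 with median centring or quantile normalization, 1 without siBCL11A library 1 or siMBNL1 library 2, and 0 without siBCL11A library 2 or 3 or siMBNL1 library 3.

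Signalling lists with few tested members also split. Of 8 immediate early genes 3 were higher after siBCL11A, the transcription factors JUND (0.43), MYC (0.41) and KLF4 (0.41), and 3 higher after siMBNL1, led by the phosphatase DUSP6 (-0.51). MYC had 52.8, 53.2 and 55.6 RPKM after siBCL11A and 41, 36.4 and 43.4 RPKM after siMBNL1, above siNS (32.4 and 31.9 RPKM) in both. Of 11 WNT and NOTCH genes 2 were higher after siBCL11A, NOTCH2 and MYC, and LFNG, a modifier of NOTCH receptors, was higher after siMBNL1 (-0.47). The share called in that list was 27.3%, near the 29.3% of all genes. Of 10 p53 genes 3 were higher after siMBNL1 and 1, RPS27L (0.41), higher after siBCL11A (40% called), and quantile normalization gave 2 and 3. TNFRSF10C, 1 of the 3, passed the filter only through siMBNL1 (1.08 RPKM, against 0.46 RPKM after siBCL11A). Its call is not counted as support. Of 9 stress response genes 2 were higher after siMBNL1 and 1, ATF4, higher after siBCL11A (33.3% called). The 2 became 0 without siMBNL1 library 1 and 1 without any other library but siMBNL1 library 3. Among 5 mesenchymal genes TAGLN (0.35) was higher after siBCL11A and CDH11 (-0.22) higher after siMBNL1, the latter without a call when most single libraries were left out. CDKs and their inhibitors had 4 of 12 members higher after siMBNL1 and 2, CDK2 and CDK4, higher after siBCL11A. The latter 2 were lost without any single library other than siMBNL1 library 1, and the 4 became 2 without siBCL11A library 2. None of 4 small RNAs was called by limma, and 2 passed an unadjusted p under 0.05 and were called without siBCL11A library 3.

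**Figure D3:**
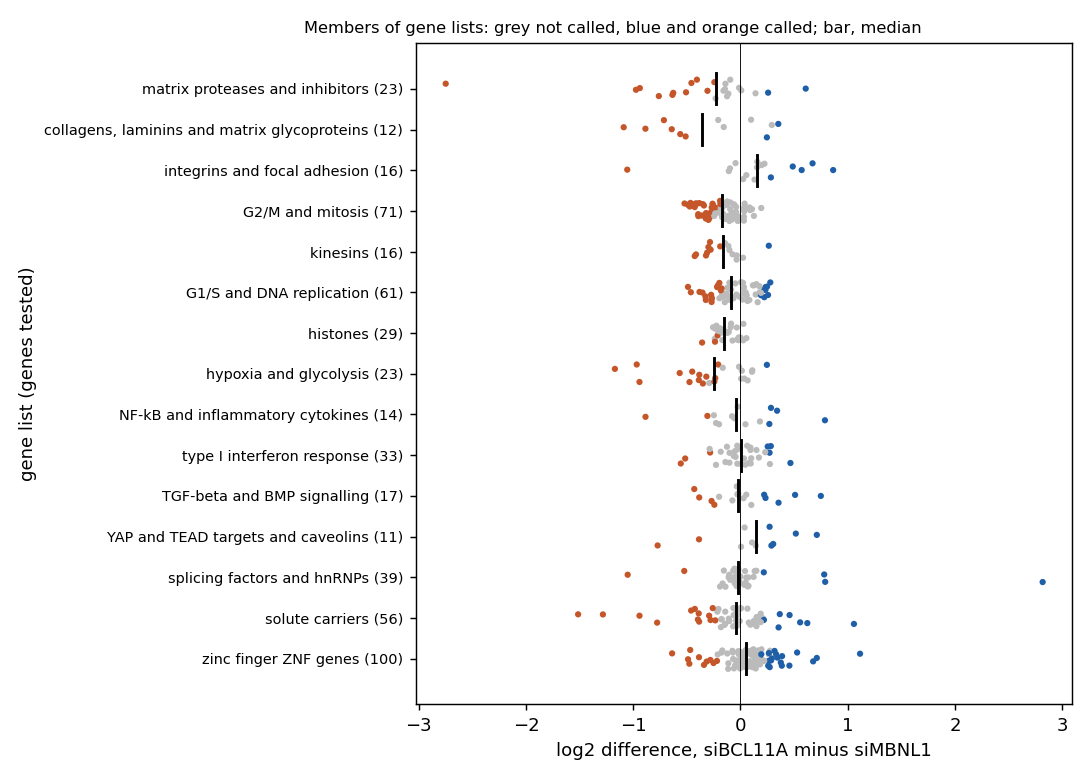
Each point is a tested member of a gene list, placed by its log2 difference (siBCL11A minus siMBNL1), with black bars for the list medians, grey for genes not called, and blue and orange for genes called higher after siBCL11A and after siMBNL1. The medians of the collagen (-0.36), hypoxia (-0.24), protease (-0.23) and G2/M (-0.17) lists lie left of zero, and that of the integrin and focal adhesion list (0.16) lies right of it.

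Regulators of splicing, the process in which MBNL1 acts, were called in few cases. Of 39 tested splicing factor and hnRNP genes, 4 were higher after siBCL11A, counting MBNL1, and 2 higher after siMBNL1, which is 15.4% against 29.3% of all genes. CELF1, an RNA-binding protein known as an antagonist of MBNL1 on shared exons, had 23.8, 24.5 and 23.9 RPKM after siBCL11A and 14.5, 13.6 and 12.7 RPKM after siMBNL1. The groups were separate, with siNS between them at 16.2 and 16.1 RPKM (0.78 ± 0.07, limma adjusted p = 2.098e-05). PTBP3, a polypyrimidine tract-binding protein, had 5.47, 5.52 and 5.15 RPKM against 11.7, 13.4 and 11.6 RPKM, with siNS at 9.13 and 8.67 RPKM. RBMS3 (0.79), an RNA-binding protein, entered this list through its name prefix and is not an established splicing factor. Of 16 tested genes known to host MBNL-dependent exons 6 were called, among them SLAIN2 (1.03), NFIB (0.55) and GOLGA2 (-0.81), and the 4 of them higher after siBCL11A became 8 with median centring. Of 100 zinc finger genes with ZNF symbols, 19 were higher after siBCL11A and 10 higher after siMBNL1, which is 29% against 29.3% of all genes, and quantile normalization gave 32 and 8. ZNF74, 1 of the 10, passed the filter only through siMBNL1 (1.53 RPKM, against 0.831 RPKM after siBCL11A). The components of the siRNA and miRNA pathway that were tested, XPO5 (0.26) and TNRC6B (0.20), were both higher after siBCL11A.

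Cassette exons gave another readout of the same knockdowns. The authors' deposited lists hold 107 exons for siBCL11A and 110 for siMBNL1, with 1 inclusion level per group, the fraction of transcripts that keep the exon, so no test was possible. The lists share 26 exons by coordinates (hg19), which is 24.3% of the siBCL11A list and 23.6% of the siMBNL1 list. For 25 of the 26 the flanking exons were equal too, and so was the siNS value in both lists. MARK3, where they were not equal, was left out of the comparison. By the authors' deposited values, 23 of the 25 exons moved from siNS in the same direction after both knockdowns, and 20 differed by less than 0.1 between them. The exons were listed for a change from siNS, and both changes use the same siNS value, which favours a common direction. The shared direction is therefore a description.

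The exceptions were an exon of KIF13A and an exon of ITGA6. The 39-base exon of the kinesin gene KIF13A (chr6:17790103-17790141, minus strand, hg19) had an inclusion of 0.716 in siNS, 0.920 after siBCL11A, 0.430 after siMBNL1 and 0.457 after both pools, in the authors' deposited tables. The 130-base exon of the laminin receptor subunit ITGA6 (chr2:173366500-173366629, plus strand, hg19) had 0.380, 0.550, 0.202 and 0.194 in the same order. Both exons were included more than in siNS after BCL11A knockdown, where the MBNL1 transcript was above siNS, and less after MBNL1 knockdown and after the combination. Whether the MBNL1 level bears on these exons was not tested. Exons of MTA1 and SENP7 moved in the same direction after both knockdowns and differed in inclusion, siBCL11A minus siMBNL1, by -0.15 and -0.14. Expression of the host genes was a separate matter: of the 9 host genes tested, only STX3 (0.48) was called. Among all genes with an exon on the siBCL11A list 28.6% of 28 tested were called, and on the siMBNL1 list 35.5% of 31, against 29.3% of all genes.

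**Figure D4:**
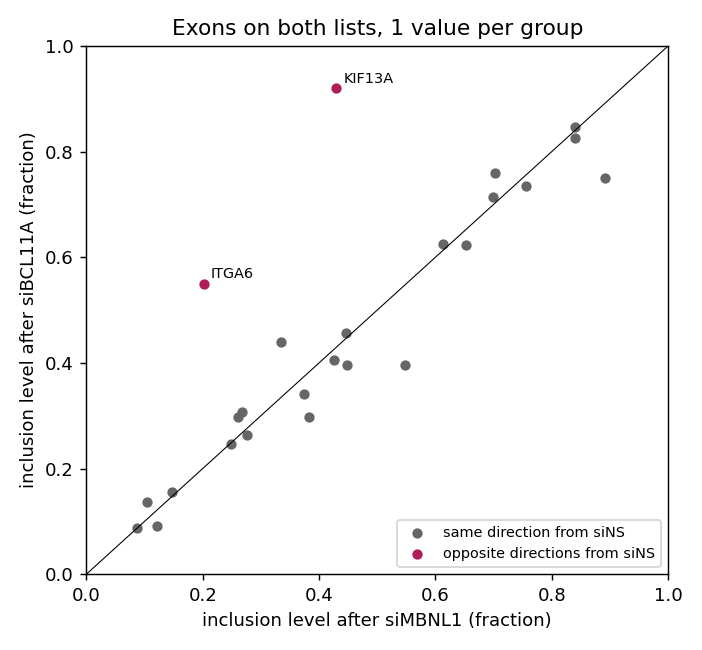
The inclusion level (fraction) of 25 cassette exons is plotted after siMBNL1 on the horizontal axis and after siBCL11A on the vertical axis, 1 value per group with no replicate error. Most exons lie near the line of equality, and KIF13A (0.430 and 0.920) and ITGA6 (0.202 and 0.550), the 2 exons that moved in opposite directions from siNS, lie far above it.

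Promoter sequences of some leading genes are shown because the contrast sets a DNA-binding repressor against an RNA-binding protein. Of the 12 leading genes of each direction, 9 higher after siBCL11A and 6 higher after siMBNL1 had a promoter entry. By rule the first 2 of each direction with an entry on a chromosome allowed for printing were taken. MMP1 and SLCO4A1, with larger differences than GPR116, are not among them. RefSeq (GRCh38.p14) gave a 300-base promoter window, 250 bases before to 50 after the start, for 2620 of the 3236 genes tested. Printed are the 250 bases before the start, 5' to 3', for MBNL1 (chr3:152268679-152268928, plus strand), SERTAD2 (chr2:64653914-64654163, minus strand), NOTCH2 (chr1:120069663-120069912, minus strand), GPR116, now named ADGRF5 (chr6:46954940-46955189, minus strand), and SLC17A5 (chr6:73653993-73654242, minus strand). Capitals mark TGACCA or its reverse complement TGGTCA. NOTCH2 was added after its match was seen, with the first base of the match at -239 from the start.

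MBNL1: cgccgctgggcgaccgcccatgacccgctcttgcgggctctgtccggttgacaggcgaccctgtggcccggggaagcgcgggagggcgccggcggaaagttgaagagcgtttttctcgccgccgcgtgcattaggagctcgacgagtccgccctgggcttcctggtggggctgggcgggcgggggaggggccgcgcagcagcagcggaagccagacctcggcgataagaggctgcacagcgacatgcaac

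SERTAD2: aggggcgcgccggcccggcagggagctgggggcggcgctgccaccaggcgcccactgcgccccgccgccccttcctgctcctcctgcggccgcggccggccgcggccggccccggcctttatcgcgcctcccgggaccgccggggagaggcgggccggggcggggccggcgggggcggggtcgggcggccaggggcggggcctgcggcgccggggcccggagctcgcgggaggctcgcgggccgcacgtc

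NOTCH2: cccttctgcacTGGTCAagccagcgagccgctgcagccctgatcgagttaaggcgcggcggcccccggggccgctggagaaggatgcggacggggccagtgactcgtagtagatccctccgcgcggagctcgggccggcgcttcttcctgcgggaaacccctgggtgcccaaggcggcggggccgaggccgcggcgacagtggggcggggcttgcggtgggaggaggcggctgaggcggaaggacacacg

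GPR116: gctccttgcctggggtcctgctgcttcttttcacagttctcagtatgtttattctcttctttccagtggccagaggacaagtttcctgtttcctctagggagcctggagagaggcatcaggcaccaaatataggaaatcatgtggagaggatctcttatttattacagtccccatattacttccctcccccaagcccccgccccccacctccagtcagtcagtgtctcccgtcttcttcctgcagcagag

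SLC17A5: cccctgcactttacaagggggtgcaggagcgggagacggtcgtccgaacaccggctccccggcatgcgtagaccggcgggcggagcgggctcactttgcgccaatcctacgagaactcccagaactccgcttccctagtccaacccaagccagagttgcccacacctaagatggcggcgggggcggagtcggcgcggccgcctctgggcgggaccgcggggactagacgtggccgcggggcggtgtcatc

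TGACCA, the motif BCL11A is known to bind in the gamma-globin promoters, was searched on both strands of the whole window. It occurred in 27 of 330 promoters (8.18%) of genes higher after siBCL11A and in 34 of 433 (7.85%) of genes higher after siMBNL1. All genes tested had it in 8.24% and all 27305 promoters in 10.98%, so the called genes stood at the level of the genes tested. TGAGTCA, the AP-1 motif, cannot overlap a TGACCA match on either strand and occurred in 3.33% and 3.46% of the same promoter groups, 3.17% of all genes tested and 4.92% of all promoters. The median GC content of the window was 65.3% in both called groups and in all genes tested, and among the printed genes the GPR116 window was the lowest at 53% and the SERTAD2 window the highest at 83.7%. A match in a promoter is a description of its letters and not a measured binding site.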

How the data were processed

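Total RNA of MDA-MB-231 cells was sequenced in 11 libraries, which were grouped by their titles, and 6 of them enter the contrast. The authors deposited RPKM values for each library, in blocks that compare a knockdown with siNS, together with p-values of their own tests. The largest adjusted p-value in the authors' deposited table is 0.04998 for siBCL11A and 0.0498 for siMBNL1. They also deposited lists of exons with inclusion levels as a fraction, 1 value per group. The genome build is hg19 per the submitters' processing notes; the programs for alignment, for counting and for exon inclusion are not given in the sources used. The siNS values of the genes tested are those of the siBCL11A block. Of 4 repeated siNS columns in the other blocks, 2 hold equal values and the others do not. Which block holds the unequal columns, and how far they differ, was not worked out. The siNS levels set beside siMBNL1 values may therefore differ from those of the siMBNL1 block. Whether the blocks were scaled alike was not tested. The repeats supplied siNS only for genes without a value in the siBCL11A block, which enter only the alternative fit with all groups.

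The difference siBCL11A minus siMBNL1 was fitted to log2(RPKM + 1) with limma 3.58.1 in R 4.3.3, a model of 2 groups with 6 libraries, trend and robust options off, two-sided, with Benjamini-Hochberg adjustment over the 3236 genes with a mean of at least 1 RPKM in a group. The plan named a count model in case the table held counts; since it holds RPKM, limma was used. The prior had 5.952 degrees of freedom and an SD of 0.089 on the log2 scale. The code was tested on simulated data. Depth is not stated by the authors and was estimated from 10 to 12 short RNAs per library, searching only a preset range of depths. Their RPKM are whole multiples of 1 read within 0.05 reads for 66.7% to 75.0% of them in the 6 libraries. Each depth is the best match in the range, where the median share was 7.7% to 8.3%. The best match that unrelated values would reach was not tested. A multiple of these depths cannot be told apart. The SD of log2 differences between libraries of a group was 0.12 to 0.18, and no pair of libraries shared values. An exact permutation test of 3 against 3 libraries cannot go below 0.1 and was not used.

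Genes were named by rule: the targets, the 12 largest called differences without overlap in each direction, and up to 4 members per gene list. The rule also took the 6 genes within 1.2-fold that lay farthest from siNS. Others are marked in the text, except for some, such as ZYX, CDK2 and CDK4. Members and lists were chosen with earlier results of these data known. Lists are described by counts and medians, with no set test. Alternatives were other pseudocounts, filters, scalings, adjustments and models, a replicate block, and leaving out each library.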

Additional observations from a re-analysis of the deposited data

How the results depend on the processing

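No gene named by rule had its call reversed in an alternative run. This does not cover the sign of uncalled genes close to zero, such as CENPQ and WEE1. Of 149 genes named by rule other than MBNL1, 22 lost a call and 5 gained one under at least 1 alternative, none of them among the 23 leading genes. Genes named outside the rule, such as LOX, CDK2 and CDK4, which lost calls, are not in these counts. Adjusting over the 23227 genes behind the authors' own tests left 166 genes called higher after siBCL11A and 299 higher after siMBNL1, since more genes count as tested. With a pseudocount of 0.1 RPKM the genes with a log2 difference of at least 1 that were higher after siMBNL1 numbered 46 instead of 25. Leaving out 1 library gave 234 to 387 genes higher after siBCL11A and 401 to 588 higher after siMBNL1, 8 to 11 and 22 to 28 with a log2 difference of at least 1, 789 to 1118 within 1.2-fold, and an MBNL1 difference of 2.72 to 2.89. Median centring called 550 and 530 genes, and quantile normalization 566 and 505, of which 874 were among the 948; the cause was not tested. The replicate numbers do not pair the libraries: equal numbers had correlations of -0.21, -0.09 and 0.29, siBCL11A library 1 correlated most with siMBNL1 library 2 (0.404), and a fit with the replicate number as a block called 373 and 543 genes. Genes changed after only 1 knockdown, exon inclusion error and true depth are beyond these files.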
